A study of Mus musculus with 6 samples.

Results

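The genes described here are the NF-kB subunits Nfkb1, Nfkb2, Rela, Relb and Rel, the IkB proteins Nfkbia, Nfkbib, Nfkbie and Nfkbiz, and Tnfaip3, which encodes A20. They were taken by gene symbol from the deposited count table, where all 10 were found among 55493 genes, and all 10 passed the filter on low counts that 18210 genes passed. RNA was sequenced from microglia, the macrophages that live in brain tissue, which were purified on Percoll and gated as CD11b-positive cells with low CD45. All mice were male, carried the human LILR-region transgene ILT Telo Tg together with the 5XFAD amyloid transgenes, and were 4 months old at the start. The anti-LILRB4 group (3 libraries) received the Fc-mutant antibody ZM3.1 against human ILT3, another name of LILRB4, an inhibitory receptor of myeloid cells, and the control group (3 libraries) received the Fc-mutant antibody 27D6. Both were given intraperitoneally at 60 mg/kg each week, 8 times. The labels do not state the promoters of the transgenes, whether animals were pooled, or that each library came from a separate animal, and the p-values cover only the variation seen among the 6 libraries. The comparison asks how blocking LILRB4 changed the microglial transcriptome.

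NF-kB is a family of dimeric transcription factors that switch on inflammatory and survival genes in macrophages and microglia. In resting cells the dimers are held in the cytoplasm by IkB proteins. Signals from Toll-like, cytokine and tumour necrosis factor receptors activate the IKK kinases, IkB is degraded, and the freed dimers enter the nucleus. Nfkbia and Tnfaip3 are themselves NF-kB target genes whose products shut the signal down again. Most control of the pathway is at the level of protein, which RNA sequencing does not measure.

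In microglia of anti-LILRB4-treated mice none of the 10 genes was called different from controls, and in all 10 the groups overlapped. The log2 fold changes lay between -0.22 (Nfkbia) and 0.22 (Nfkbie), with 6 genes above 0 (beside 49.1% of all genes tested), 4 below 0 and a median of 0.05, beside a median of -0.01 over all genes. The median size of the log2 fold change, whatever its direction, was 0.17 in the 10 genes, 0.23 in all genes and 0.15 in genes with a mean log2 CPM of at least 3. In edgeR's quasi-likelihood test with Benjamini-Hochberg adjustment over all genes, the adjusted p of the 10 genes was between 0.675 and 0.974. The same test called 0% of all genes, so the absence of calls is not particular to this family. At an unadjusted p under 0.05 there were 0 of the 10 genes, beside 8.03% of all genes, and DESeq2 on the same counts called 0 of the 10 and 0.928% of all genes. The DESeq2 share is of all 18210 genes, including 2832 that it gave no adjusted p and could not call. Groups that did not overlap were found for 14.7% of all genes. In the authors' deposited table, where 187 genes had an adjusted p under 0.05, the adjusted p of these 10 genes was between 0.593 and 0.980.

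Total counts were between 41948140 and 56345514 in anti-LILRB4 libraries and between 39805118 and 44987032 in control libraries, the deepest being anti-LILRB4 library 2. The 10 genes had between 247 and 18730 reads in a library. Microglia markers were abundant: 12 of 12 were measured, and together they took between 51715 and 52400.1 CPM (counts scaled to a common TMM-adjusted library total) in anti-LILRB4 libraries and between 49957 and 51630 in controls. Neutrophil markers summed to 133, 1129 and 219 CPM in anti-LILRB4 libraries 1, 2 and 3. In control libraries 1, 2 and 3 they summed to 1334, 571 and 611 CPM. By this sum, led by S100a8 and Ngp, anti-LILRB4 library 2 was closer to the controls. In 3 of the 10 markers, Retnlg, Mmp8 and Ly6g, each anti-LILRB4 library lay below each control, beside 7.79% of all genes. In the other 7 the groups overlapped. Border-associated macrophage markers summed to between 277 and 330.1 CPM in anti-LILRB4 libraries and between 197 and 250.4 CPM in controls, oligodendrocyte markers to between 159 and 171 CPM in anti-LILRB4 libraries and between 125 and 144 CPM in controls, and B cell markers to between 587 and 699 CPM in anti-LILRB4 libraries and between 451 and 540.1 CPM in controls. These sums, which did not overlap, were led by Stab1, Cnp and Ighm, and the microglia marker sums did not overlap either. Stab1, Cnp and Ighm were also the only markers of their lists with each anti-LILRB4 library above each control. Groups overlapped in 7 of 8, 5 of 6 and 5 of 6 markers. Over all genes 14.7% had no overlap in either direction. Log2 fold changes were negative for 0, 1 and 2 markers of these lists. Of the microglia markers 3 of 12 had no overlap. Of the defining neutrophil markers 0 of 10 were at 0 in all libraries. Neuron markers summed to under 2 CPM in each library, and of the T and NK cell markers 7 of 8 were below 1 CPM in all libraries. In such bulk samples fewer cells of a type and less RNA per cell cannot be told apart.

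The 10 genes covered a wide range of levels. Levels of different genes are compared as RPKM, that is CPM per kilobase of exon, using GENCODE M21 exon lengths. That length joins the exons of all annotated transcripts, whichever were expressed, for example 12061 bases for Nfkb1 and 3072 for Rela. The order and the gaps given below depend on it. By mean CPM, Nfkb1 (160 in anti-LILRB4 and 144 in control libraries) lay above Rela (146 and 129). Nfkbia, the main inhibitor IkB-alpha, was highest, at 193 ± 4.68 RPKM in anti-LILRB4 libraries and 226 ± 33.8 RPKM in control libraries (SD, n = 3 each). Rela, the p65 subunit that carries the transactivation domain of the common dimer, came next at 47.6 ± 5.99 RPKM in anti-LILRB4 libraries and 42.1 ± 2.43 RPKM in control libraries. Nfkbia exceeded Rela 4.67 times and Rela exceeded the gene after it 2.78 times, averaged over both groups, and neither gap was bridged by any of the 6 libraries. Nfkbib, Nfkbie, Rel and Nfkb1 followed at 16.1, 16.1, 12.9 and 12.6 RPKM averaged over both groups, and neighbours in that order had overlapping ranges. After a further gap of 3.20 times with no overlap came Nfkbiz, Nfkb2, Tnfaip3 and Relb, at 3.95, 2.76, 2.58 and 2.05 RPKM, again with overlapping ranges between neighbours. Nfkbia thus lay 102 times above Relb. Of the RPKM of all 10 genes together, Nfkbia made up 64.3, 59.7 and 62.4% in anti-LILRB4 libraries 1, 2 and 3 and 72.0, 64.2 and 64.9% in control libraries 1, 2 and 3.

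**Figure D1:**
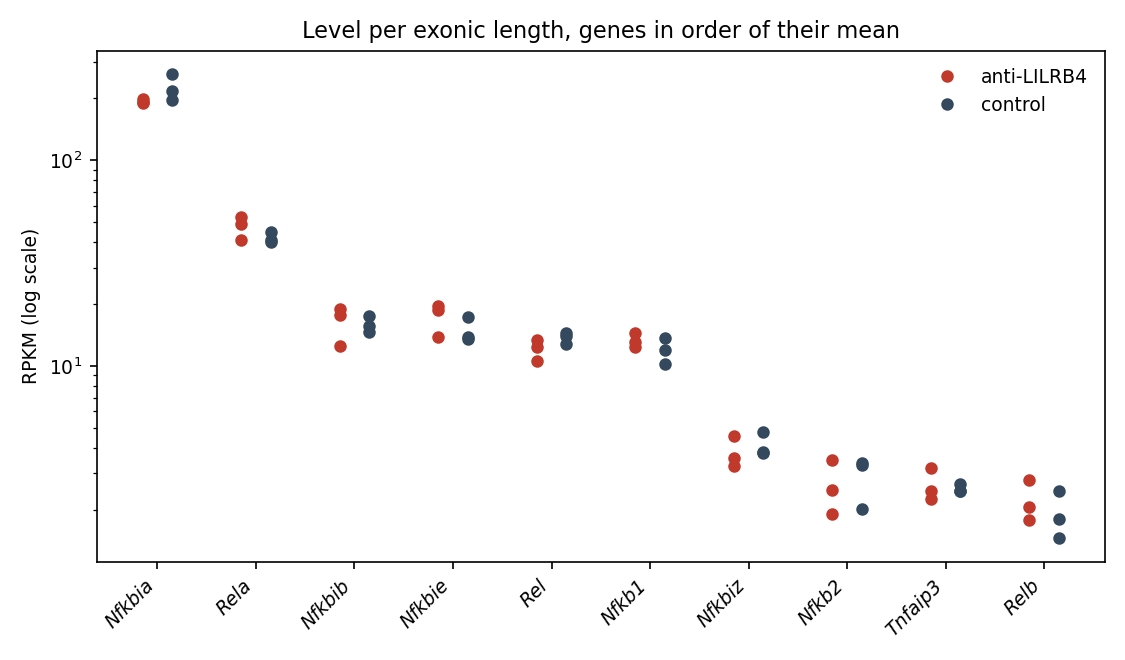
RPKM of each gene on a log axis, genes ordered by their mean, each point 1 library (anti-LILRB4 left of control in each gene). Nfkbia lies between 190 and 263 RPKM and Rela between 40.3 and 52.7, with no library bridging the gap between them, and the 4 lowest genes lie under 5 RPKM.

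NF-kB is known to control some genes of its own family through a short DNA motif. The 250 bases before each transcription start in RefSeq (build GRCm38.p6) were searched on both strands for the kappa B consensus, whose matches can overlap each other. Windows were found for 7 of the 10 genes, Nfkb1, Relb and Nfkbiz being the others. The kappa B consensus matched in Nfkbia, Tnfaip3, Nfkb2, Rel and Nfkbie, 5 of the 7 genes, beside 4.46% of 27025 genes. Rela and Nfkbib had no match in this window, which says only that the motif is not in these letters. A match describes the sequence and does not show binding. The windows of Nfkbia (chr12:55492648-55492897, minus strand), Rel (chr11:23770970-23771219, minus strand) and Nfkbie (chr17:45555450-45555699, plus strand) are printed because they show such a match in the inhibitors IkB-alpha and IkB-epsilon and in a subunit, and capitals mark the matched bases.
Nfkbia: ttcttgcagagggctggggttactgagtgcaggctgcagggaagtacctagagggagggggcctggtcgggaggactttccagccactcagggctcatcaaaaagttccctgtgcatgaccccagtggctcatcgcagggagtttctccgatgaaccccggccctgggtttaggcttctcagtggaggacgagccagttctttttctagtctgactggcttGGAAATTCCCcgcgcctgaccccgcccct
Rel: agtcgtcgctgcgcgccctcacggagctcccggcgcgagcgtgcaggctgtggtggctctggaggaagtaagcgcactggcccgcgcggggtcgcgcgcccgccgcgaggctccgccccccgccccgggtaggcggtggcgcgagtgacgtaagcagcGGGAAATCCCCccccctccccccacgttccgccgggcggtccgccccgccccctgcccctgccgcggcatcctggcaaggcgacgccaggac
Nfkbie: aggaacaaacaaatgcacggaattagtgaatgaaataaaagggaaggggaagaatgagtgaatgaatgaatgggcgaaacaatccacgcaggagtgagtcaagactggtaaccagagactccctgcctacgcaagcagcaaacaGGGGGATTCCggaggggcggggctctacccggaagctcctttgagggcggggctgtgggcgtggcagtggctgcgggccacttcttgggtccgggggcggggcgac
In Nfkbia the match GGAAATTCCC begins 29 bases before the start, and in Nfkbie GGGGGATTCC begins 106 bases before it. In Rel 2 overlapping matches begin 92 and 91 bases before the start. Tnfaip3 holds GGGACACCCC beginning 125 and GGAAATCCCC beginning 12 bases before its upstream start (window chr10:19015411-19015660, minus strand). Nfkb2 has 3 starts in RefSeq, and before the first of them (window chr19:46304487-46304736, plus strand) lie GGGAATTCCC, GGAATTCCCC and GGGGCTTTCC. All 250 bases of that Nfkb2 window and 110 bases of the Tnfaip3 window lie in GENCODE M21 exons of the same gene. These windows are therefore not wholly ahead of annotated transcription.

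None of the subunit genes was called, and in each of them the groups overlapped. Rela (ENSMUSG00000024927, GRCm38 chromosome 19, 5637483 to 5648130, plus strand) had 126, 162 and 151 CPM in anti-LILRB4 libraries 1, 2 and 3, against 126, 124 and 138 CPM in control libraries 1, 2 and 3. Anti-LILRB4 libraries 2 and 3 lay above all controls, and anti-LILRB4 library 1 lay among them. This gave a log2 fold change of 0.18 (standard error 0.12, 95% interval -0.09 to 0.45, edgeR adjusted p = 0.761). Rel, the c-Rel subunit of blood cells (ENSMUSG00000020275, chromosome 11, 23736847 to 23770970, minus strand), had 100.1, 91.8 and 79.3 CPM in anti-LILRB4 libraries and 95.5, 107 and 104 CPM in control libraries. Here anti-LILRB4 library 1 lay inside the control range and libraries 2 and 3 below it, which gave a log2 fold change of -0.18 (standard error 0.12, 95% interval -0.46 to 0.09, adjusted p = 0.761 in edgeR).

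Nfkb1 encodes p105, the precursor of the p50 subunit that pairs with p65 (ENSMUSG00000028163, chromosome 3, 135584655 to 135691547, minus strand). It had 149, 173 and 158 CPM in anti-LILRB4 libraries and 123, 144 and 165 CPM in control libraries, with anti-LILRB4 library 2 above the control range and the other two inside it. Its log2 fold change was 0.15 (standard error 0.13), and 0.05 without control library 1, the lowest library. Nfkb2, the p100 precursor of p52 (ENSMUSG00000025225, chromosome 19, 46304320 to 46312385, plus strand), had 8.69, 16.0 and 11.4 CPM in anti-LILRB4 libraries and 9.22, 15.1 and 15.5 CPM in control libraries. The spread within each group was larger than the difference between them, with coefficients of variation of 30.7% in anti-LILRB4 and 26.4% in control libraries. Relb, the partner of p52 in the non-canonical pathway (ENSMUSG00000002983, chromosome 7, 19606217 to 19629438, minus strand), had 6.89, 10.8 and 8.01 CPM in anti-LILRB4 libraries and 6.99, 9.57 and 5.62 CPM in control libraries. Its 95% interval on the log2 scale, -0.41 to 0.83, was wide, as was that of Nfkb2, -0.77 to 0.49, so that a Relb level up to 1.78 times and an Nfkb2 level down to 0.588 times that of controls lay within the intervals of these low genes. Exons of Nfkb2 overlap those of Psd and AC114539.1 on the opposite strand, and the library kit does not mark strand, so their reads cannot be told apart.

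**Figure D2:**
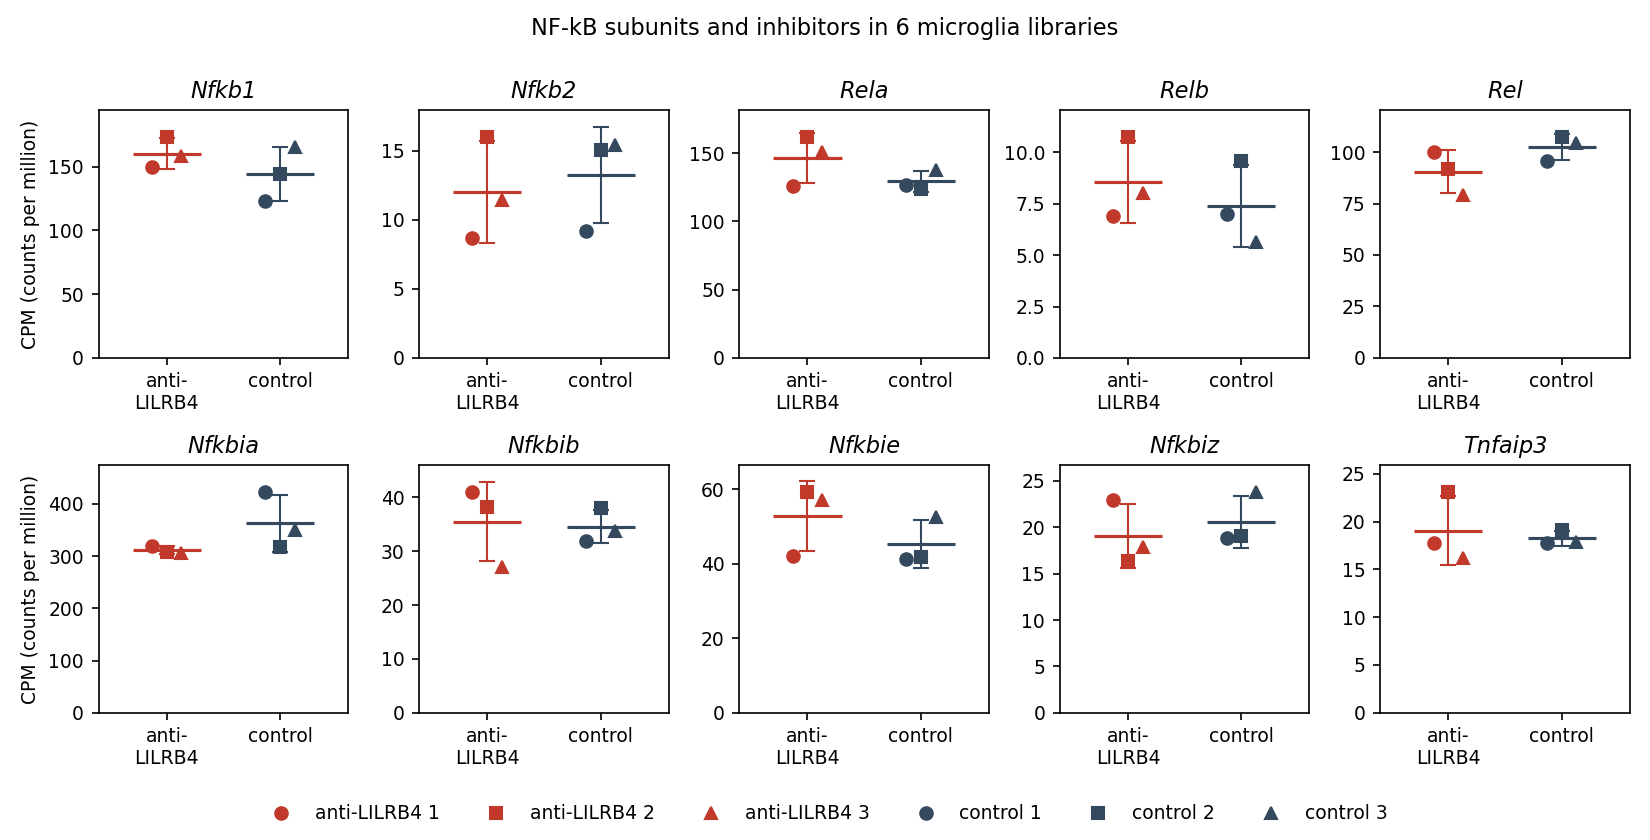
CPM of each gene in the 6 libraries (y axes start at 0 and differ between panels), with marker shapes for library numbers, bars for group means and error bars for SD (n = 3 each). The groups overlap in all 10 panels, and anti-LILRB4 library 2 (square) holds the highest value of Nfkb1, Nfkb2, Rela, Relb, Nfkbie and Tnfaip3.

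Among the inhibitors, Nfkbia (ENSMUSG00000021025, chromosome 12, 55489410 to 55492647, minus strand) had the smallest p of the 10 genes. IkB-alpha binds p65 dimers and is resynthesised after each round of activation. Nfkbia had 319.9, 308 and 306 CPM in anti-LILRB4 libraries 1, 2 and 3, against 423, 317 and 349 CPM in control libraries 1, 2 and 3. The anti-LILRB4 libraries were close together, and the highest of them lay just above control library 2. The log2 fold change of -0.22 (standard error 0.12, 95% interval -0.48 to 0.04) had an unadjusted p of 0.0863 and an adjusted p of 0.675 in edgeR's quasi-likelihood test. Without control library 1, the highest library, it was -0.10. Without control library 2, the lowest control, it was -0.31 (unadjusted p = 0.0340, adjusted p = 0.527 in edgeR). The spread also differed, with a coefficient of variation of 2.42% in anti-LILRB4 and 15.0% in control libraries. That difference in spread was not tested.

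Nfkbie, encoding IkB-epsilon (ENSMUSG00000023947, chromosome 17, 45555703 to 45563169, plus strand), went the other way, with 42.1, 59.3 and 57.1 CPM in anti-LILRB4 libraries and 41.1, 41.9 and 52.6 CPM in control libraries. Anti-LILRB4 libraries 2 and 3 exceeded every control and library 1 did not, for a log2 fold change of 0.22 (standard error 0.17, 95% interval -0.15 to 0.60, adjusted p = 0.779 in edgeR). Nfkbib, encoding IkB-beta (ENSMUSG00000030595, chromosome 7, 28758251 to 28767512, minus strand), had 41.0, 38.2 and 27.1 CPM in anti-LILRB4 libraries, which held both the highest and the lowest value, and 31.9, 37.9 and 33.8 CPM in control libraries. Its log2 fold change of 0.04 had a 95% interval of -0.35 to 0.43. Exons of Nfkbib overlap those of Ccer2 by 314 and those of Sirt2 by 42 of its 2169 exonic bases, on the opposite strand. Nfkbiz, a nuclear IkB that helps induce secondary inflammatory genes (ENSMUSG00000035356, chromosome 16, 55811375 to 55838899, minus strand), had 22.9, 16.4 and 17.9 CPM in anti-LILRB4 libraries and 18.8, 19.0 and 23.8 CPM in control libraries. In each group 1 library stood above the other two.

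Tnfaip3 (ENSMUSG00000019850, chromosome 10, 19000910 to 19015657, minus strand) encodes A20, an enzyme that edits ubiquitin chains and stops signalling upstream of IKK. It had 17.8, 23.1 and 16.2 CPM in anti-LILRB4 libraries, against 17.7, 19.2 and 17.9 CPM in control libraries. The controls were within 2 CPM of each other and the anti-LILRB4 libraries lay on both sides of them. The log2 fold change was 0.06 (standard error 0.18, 95% interval -0.35 to 0.47), and -0.09 without anti-LILRB4 library 2. That library was highest in 6 of the 10 genes, and was the deepest and the anti-LILRB4 library with the highest summed neutrophil marker CPM. The part of either in these levels was not tested.

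**Figure D3:**
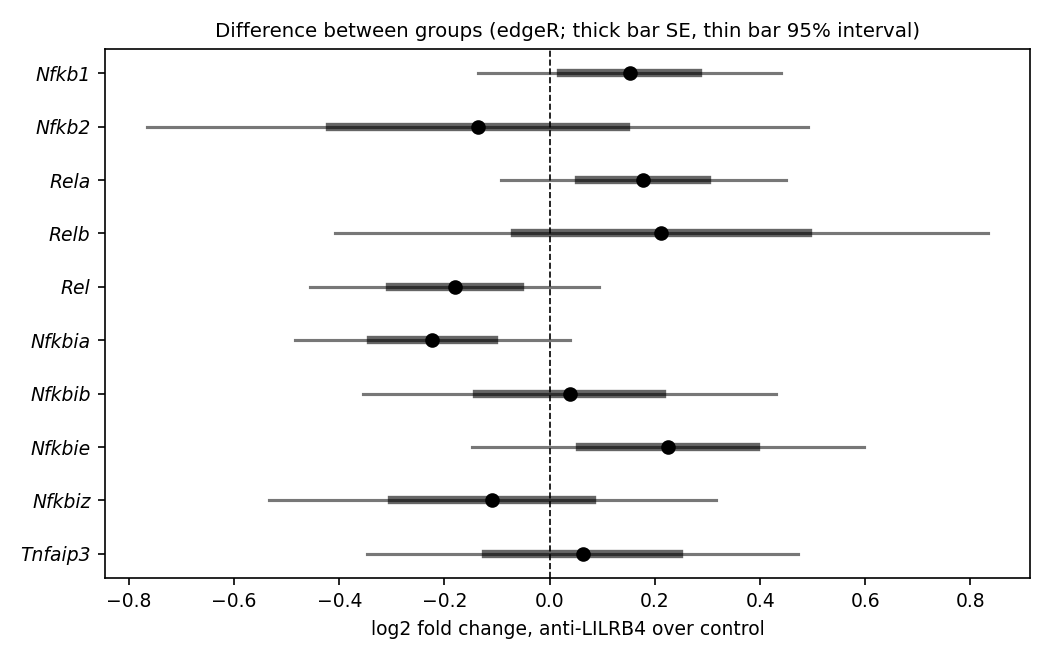
Log2 fold change of each gene, anti-LILRB4 over control (points), with its standard error (thick bars) and 95% interval (thin bars) from edgeR. All 10 intervals include 0, from the narrowest around Nfkbia, -0.48 to 0.04, to the widest around Nfkb2 and Relb.

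Balance between inhibitor and subunit, between inhibitors and between subunits was also compared within each library, where the scaling of libraries cancels. The pairs were chosen after the values were seen, and the permutation p-values given here do not account for that choice. Reads of Nfkbia over reads of Rela were 2.54, 1.90 and 2.03 in anti-LILRB4 libraries 1, 2 and 3, against 3.35, 2.57 and 2.53 in control libraries 1, 2 and 3. Anti-LILRB4 library 1 and control library 3 were nearly equal, so the groups overlapped. Per exonic length the ratio was 4.11 ± 0.642 in anti-LILRB4 and 5.37 ± 0.880 in control libraries (SD, n = 3 each), a log2 difference of -0.38 with an exact two-sided permutation p of 0.2, where 3 against 3 libraries cannot go below 0.1. Nfkbia over Nfkbie reads (log2 difference -0.43) and Rel over Rela reads (-0.36) each had an exact permutation p of 0.3.

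Across alternatives the sign of the fold change held for 6 genes and did not for 4. Its size moved in both kinds, and Relb, among the 6, ran from 0.02 to 0.45. Nfkb1, Rela, Relb and Nfkbie stayed above 0 and Rel and Nfkbia below 0 in all 14 settings, counting the edgeR test above and each single library left out. Nfkb2, Nfkbib, Nfkbiz and Tnfaip3 changed sign in at least 1 of them. In none of these settings was any of the 10 genes called, the smallest adjusted p being 0.527.

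**Figure D4:**
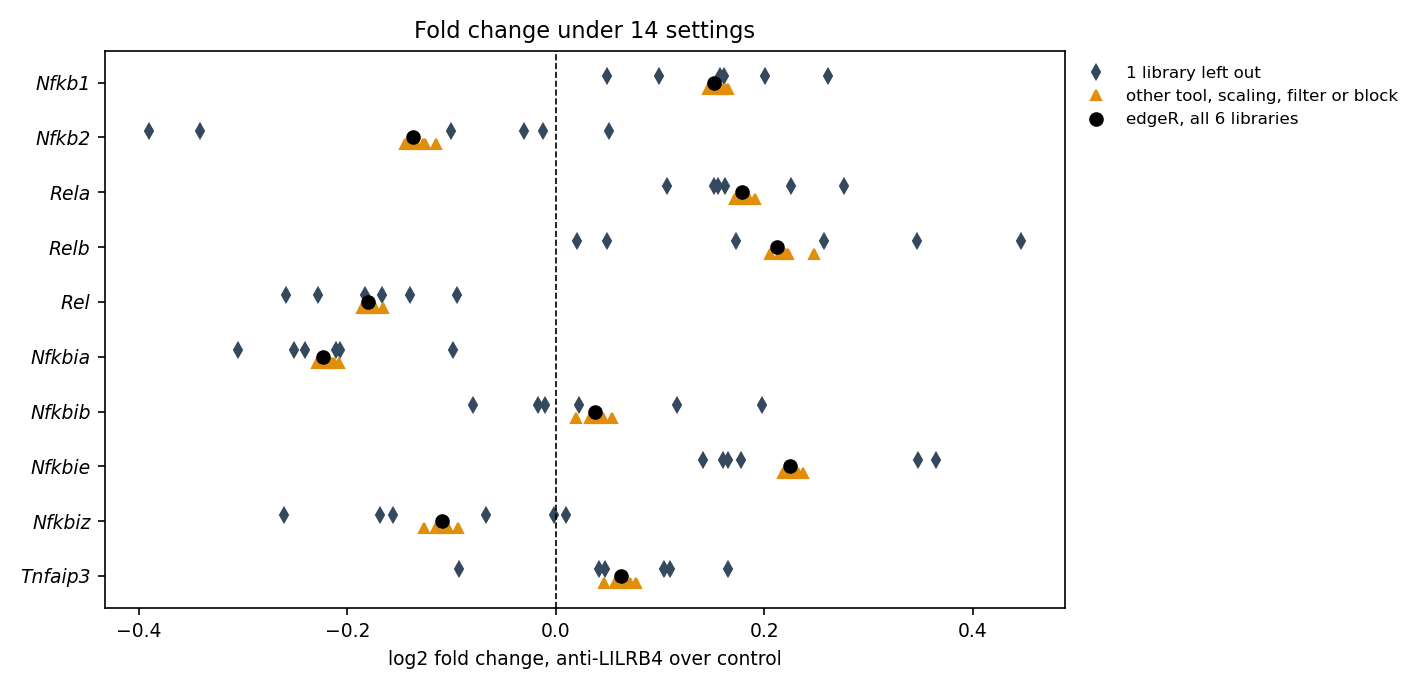
Log2 fold change of each gene, anti-LILRB4 over control, with all 6 libraries in edgeR (circles), with 1 library left out (diamonds) and with another tool, scaling, filter or a replicate block (triangles). Leaving out libraries moves the values more than the other settings do, for example between -0.39 and 0.05 for Nfkb2 and between -0.31 and -0.10 for Nfkbia.

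By the mean absolute difference of centred log2 CPM over the 6 libraries, the genes most like Nfkbia among 6368 protein-coding genes with a mean log2 CPM of at least 4 were Trappc13, a subunit of a vesicle-tethering complex, Prdx1, a peroxiredoxin, and Bcdin3d, an RNA methyltransferase, at 0.0148, 0.0314 and 0.0351. With 6 libraries, near matches among so many genes carry little information. Each shared the high value in control library 1, at 66.1 CPM for Trappc13 and 482 CPM for Prdx1.

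The genes upstream of NF-kB were described from lists, by counts, beside all genes tested. In the IKK complex and upstream kinases, 14 of 15 genes were tested and 0 were called. Before adjustment, p was under 0.05 for 1 higher and 1 lower gene, beside 4.12% and 3.91% of all genes. The lower was Chuk, the IKK-alpha kinase, at 14.4, 12.1 and 15.3 CPM in anti-LILRB4 libraries and 20.3, 16.5 and 18.7 CPM in controls, with no overlap. The higher was Map3k14, the kinase NIK of the non-canonical pathway, at 38.7 ± 4.24 CPM in anti-LILRB4 and 28.9 ± 7.11 CPM in control libraries (SD, n = 3 each). Irak4, a kinase below Toll-like receptors, had a log2 fold change of 0.32. The most abundant genes of the list, Irak2 and Ikbkb, had log2 fold changes of 0.17 and 0.09. Of 21 adaptors and ubiquitin ligases 0 were called by edgeR after the low-count filter. Before adjustment 2 higher and 0 lower genes had p under 0.05, beside the same 4.12% and 3.91%. They were Card9, an adaptor below C-type lectin receptors, with 13.7, 14.1 and 10.6 CPM in anti-LILRB4 libraries and 2.46, 6.17 and 6.28 CPM in controls, and Rbck1, part of the ligase that builds linear ubiquitin chains, with a log2 fold change of 0.50. Card9 had no overlap, beside 14.7% of all genes in either direction, and a log2 fold change of 1.36 (standard error 0.34, edgeR adjusted p = 0.426). It was called by DESeq2, which called 0.928% of all genes. EdgeR without the low-count filter, which called 0.847% of all genes, also called it. In Sharpin, named after its value was seen, each anti-LILRB4 library also lay above each control. Birc3, a ubiquitin ligase that is itself an NF-kB target, had a log2 fold change of -0.28 with no overlap, and the abundant Ube2n and Bcl10 had -0.09 and -0.11.

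Receptors that signal to NF-kB had a median log2 fold change of -0.02 over 9 genes, with 0 called. Before adjustment 1 higher and 1 lower receptor had p under 0.05, beside 4.12% and 3.91% of all genes. Tlr2, a receptor for bacterial lipopeptides, had 224, 197 and 199 CPM in anti-LILRB4 libraries and 314, 237 and 253 CPM in controls, so that each anti-LILRB4 library lay below each control, as in 7.79% of all genes (edgeR adjusted p = 0.506). Cd40 was at 2.06 ± 0.877 CPM in anti-LILRB4 and 0.815 ± 0.595 CPM in control libraries (SD, n = 3 each), and Tnfrsf11a had a log2 fold change of 0.22. In Tnfrsf11a and in Ltbr, named after its value was seen, each anti-LILRB4 library lay above each control. Tlr2 was the only receptor of the list below. Over all genes 14.7% had no overlap in either direction. Cd14 and Tnfrsf1a, the most abundant receptors of the list, had log2 fold changes of -0.02 and -0.06. Other negative regulators had 0 of 16 genes called, 0 at an unadjusted p under 0.05 and a median of -0.01. Zc3h12a, an RNase that degrades cytokine transcripts, Irak3, an inhibitor of Toll-like receptor signalling, and Itch, a ubiquitin ligase, had the smallest p-values, with log2 fold changes of -0.42, -0.44 and 0.14, and the abundant Tnfaip8l2 had 0.15.

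NF-kB target genes held more genes with an unadjusted p under 0.05 than any other of the 6 pathway and early gene lists. The lists differ in size, with 25 target genes tested and 9 to 21 genes in each of the others. They are not separate kinds either, since Ier3, an early gene, is among the targets. The immediate early list, given after the target list, had the lower median. Of 30 target genes 25 were tested, 19 had a negative and 6 a positive log2 fold change, and the median was -0.27. Before adjustment p was under 0.05 for 9 lower and 0 higher genes, and in 7 each anti-LILRB4 library lay below each control, beside 3.91% and 7.79% of all genes. This list and the immediate early list were chosen with earlier results of these data known. Their counts beside the shares of all genes are therefore no independent evidence. Nfkbia, Tnfaip3 and Birc3, also NF-kB targets, are not on the target list. By edgeR over all filtered genes 0 were called, DESeq2, which called 0.928% of all genes, called Junb alone, and edgeR without the low-count filter, which called 0.847% of all genes, called Junb, Ier3, Ccl3, Ccl4 and Tnfaip2 among 28 target genes, the last 3 named for these calls. Junb, an AP-1 transcription factor, had 63.5, 72.7 and 61.2 CPM in anti-LILRB4 libraries, against 97.9, 93.3 and 96.6 CPM in controls, a log2 fold change of -0.54 (standard error 0.12, edgeR adjusted p = 0.420). Ccrl2, a chemerin-binding receptor, had 50.1, 51.4 and 52.8 CPM in anti-LILRB4 libraries and 89.8, 70.5 and 61.9 CPM in controls. Ier3, an early gene that limits cell death, had 26.2, 26.1 and 32.9 CPM in anti-LILRB4 libraries and 65.5, 37.5 and 40.0 CPM in controls. In all 3 the groups were apart, and in Ccrl2 and Ier3 control library 1 was the highest. Cd83, a surface protein of activated myeloid cells, had a log2 fold change of -0.31 and Bcl2l1, a survival gene, 0.07, as the most abundant of the list. Cxcl1 and Ptgs2 had 0 reads in all 6 libraries.

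The target gene count leaned on single libraries. Without control library 1 the 9 genes became 3 and the median -0.16, and without anti-LILRB4 library 3 they became 5. The mean log2 CPM of the target genes, relative to the control mean, was -0.24, -0.26 and -0.29 in anti-LILRB4 libraries 1, 2 and 3 and 0.35, -0.25 and -0.10 in control libraries 1, 2 and 3, so that control library 2 lay among the anti-LILRB4 libraries and control library 1 stood highest. For immediate early and dissociation genes, which cell isolation can induce, the same measure was -0.36, -0.40 and -0.57 in anti-LILRB4 libraries 1, 2 and 3 and 0.13, 0.00 and -0.13 in control libraries 1, 2 and 3, with no overlap. Their median log2 fold change was -0.30, 14 of 16 tested genes had a negative one, and in 8 each anti-LILRB4 library lay below each control, beside 7.79% of all genes. Klf4, Ier2 and Fosb were the 3 lower genes with p under 0.05 before adjustment and Nr4a1, named after its value was seen, the 1 higher, beside 3.91% and 4.12% of all genes, and the abundant Btg2 and Klf6 had log2 fold changes of -0.17 each. DESeq2 called Klf4 and Ier2 lower, beside 0.928% of all genes called in either direction. The summed neutrophil marker CPM given above also moved in part with the groups. The part of either in the target gene levels was not tested. Bcl2a1b and Bcl2a1d, also on the list, have near-identical copies, so their reads are uncertain.

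**Figure D5:**
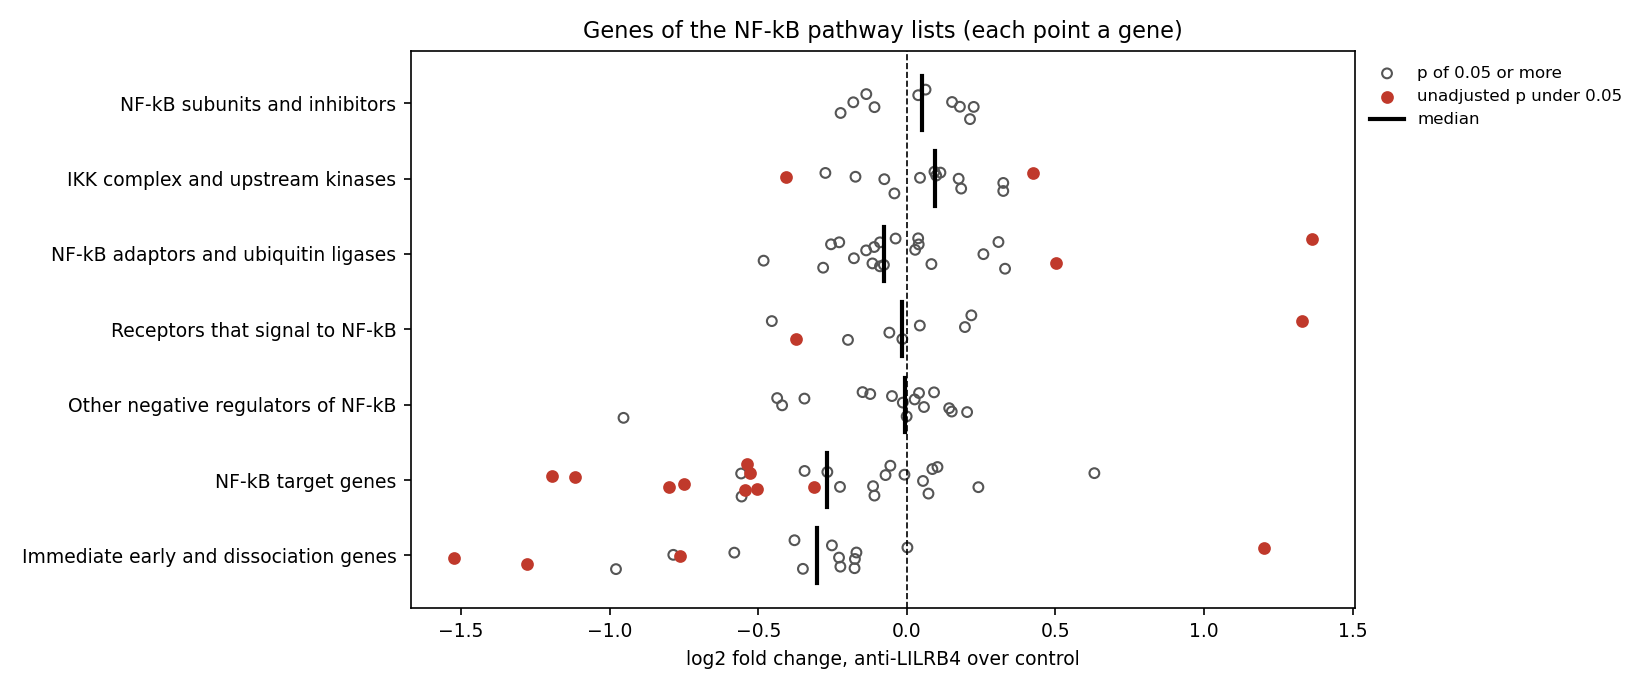
Log2 fold change, anti-LILRB4 over control, of every tested gene of each list (points), filled where the unadjusted edgeR p was under 0.05, with list medians as vertical bars. The 10 subunits and inhibitors lie between -0.22 and 0.22 with no filled point, and the target genes have 9 filled points, all below 0.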

How the data were processed

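The authors deposited raw whole-number counts of reads for each Ensembl gene in 6 libraries. Tools listed in the submitters' processing notes are STAR, featureCounts from Subread, Salmon and DESeq2 1.38.3, with no role given. Build, annotation and treatment of multi-mapping reads: not given in the sources used here. Per the file headers, a second deposited table holds a log2 fold change and its error, a score (their ratio), a p-value and an adjusted p-value, and a mean normalized signal per gene. Per the labels' protocols, cDNA came from 10 ng of total RNA with a kit that does not mark strand. Only 499 of 24360 genes started at the same place in the authors' table and in GENCODE M21 on GRCm38, so gene coordinates were taken from GENCODE M21 by Ensembl identifier.

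From 55780 rows, 287 that repeated an identifier with identical counts were dropped. The test was edgeR 4.0.16 (R 4.3.3): filterByExpr at a minimum count of 10, TMM scaling, and a quasi-likelihood F test for treatment alone, Benjamini-Hochberg adjusted over 18210 genes, called at 0.05. Standard errors are the fold change over the square root of F. Log2 CPM used a prior count of 2. Alternatives were DESeq2 1.42.0 and voom in limma 3.58.1, other scalings and filters, a replicate block and each library left out. Exact permutation tests used scipy 1.17.1. The test was checked on simulated counts. Libraries of 1 group never agreed within sampling noise. The members and gene lists were chosen with earlier results of these data known. Named besides the members are, per pathway list, the 3 genes with the smallest p and the 2 most abundant, and the 3 genes most like Nfkbia. Other genes were named after their values were seen where a count was small.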

Additional observations from a re-analysis of the deposited data

How the results depend on the processing

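With all 6 libraries edgeR called 0 genes (1463 at an unadjusted p under 0.05). DESeq2 called 169 (84 higher, 85 lower), edgeR without the low-count filter gave 300 calls (183 higher, 117 lower), limma-voom called 0, and the other scalings, the stricter filter, the replicate block and each left-out library also gave 0 calls in edgeR. None of these called any of the 10 NF-kB genes. Of 130 fold changes of the 10 genes under 13 alternatives, 124 kept their sign and 6 did not, all 6 on leaving out a library. The ranges over left-out libraries were -0.39 to 0.051 for Nfkb2, -0.080 to 0.20 for Nfkbib, -0.26 to 0.0099 for Nfkbiz and -0.093 to 0.17 for Tnfaip3. The number of NF-kB target genes lower at an unadjusted p under 0.05, counted under each alternative as a check added after seeing the data, was 9 with all libraries, 3 to 10 over left-out libraries and 9 with the replicate block. Same-numbered libraries did not deviate together (correlations across genes of 0.01, 0.03 and -0.01), so the numbers were not taken as pairs, and the block changed no call (Nfkbia -0.21, adjusted p 0.584 in edgeR). The median log2 fold change of the adaptors and ubiquitin ligases, -0.08, was 0.01 without anti-LILRB4 library 1 and 0.00 without control library 1. No scaling moved the median of all genes by over 0.1. With 3 libraries a group, differences within the printed 95% intervals remain compatible with these data.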
